A study of Mus musculus with 26 samples.

Results

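The Obox genes are a family of homeobox genes of the mouse. The 7 members described here were Obox1, Obox2, Obox3, Obox5, Obox6, Obox7 and Obox8, chosen by their gene symbols out of the 55487 genes of the expression table. Each was found under a single identifier. Their RNA was measured in 9 single blastomeres of 8-cell embryos by scRR-seq, which reads full-length total RNA (scRR-seq-RNA) and the replication state of the genome (scRR-seq-DNA) from the same cell. Embryo 1 gave 3 of these cells (cells 1, 6 and 7) and embryo 2 gave 6 (cells 2, 3, 5, 6, 7 and 8). Per the study's methods, both embryos were made by in vitro fertilization from C57BL/6 oocytes and sperm, no genotype or treatment is named that sets them apart, and the blastomeres were separated by hand. Each embryo is 1 biological replicate, so differences between embryos were set beside the spread between cells and were not tested.

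OBOX proteins carry a homeodomain, a small DNA-binding fold whose last helix lies in the major groove and reads the bases. The genes are known for being active in the oocyte and the cleaving embryo and nearly silent elsewhere, and their products are regarded as transcription factors that help the embryo to switch on its own genome. Many further copies in the same cluster are annotated as pseudogenes.

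The stretch of coding sequence that spans the recognition helix is shown for all members, because it shows how far Obox6, the strongly expressed member, and Obox8 differ in sequence from the others. Each line gives 60 bases of an annotated transcript (GRCm38, GENCODE M21), 5′ to 3′, and capitals mark the bases that differ from Obox6.
Obox6: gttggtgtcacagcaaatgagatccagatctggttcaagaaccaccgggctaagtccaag
Obox8: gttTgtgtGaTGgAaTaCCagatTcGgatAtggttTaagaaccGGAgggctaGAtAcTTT
Obox2: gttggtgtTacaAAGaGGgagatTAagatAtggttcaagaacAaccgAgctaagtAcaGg
Obox1: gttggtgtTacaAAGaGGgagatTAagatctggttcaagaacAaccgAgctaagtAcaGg
Obox5: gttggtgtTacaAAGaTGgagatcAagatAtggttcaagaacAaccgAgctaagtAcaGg
Obox7: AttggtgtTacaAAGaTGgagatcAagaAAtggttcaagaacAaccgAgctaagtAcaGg
Obox3: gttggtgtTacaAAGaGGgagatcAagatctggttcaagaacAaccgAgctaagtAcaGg
Over these 60 bases Obox1, Obox2, Obox3, Obox5 and Obox7 differed from one another at 1 to 5 positions. From Obox6 they differed at 11 to 14 positions, and Obox8 differed from Obox6 at 21 positions and from the remaining members at 23 to 26. Each window crossed 1 intron, and its outer bases lay at Obox6 chr7:15833918-15834406 (minus strand), Obox8 chr7:14332061-14332646 (minus strand), Obox2 chr7:15397360-15397866 (plus strand), Obox1 chr7:15555678-15556183 (plus strand), Obox5 chr7:15758052-15758571 (plus strand), Obox7 chr7:14664553-14665300 (plus strand) and Obox3 chr7:15626293-15626822 (minus strand). Obox2 differed from Obox1 at 1 position. The annotated Obox2 coding sequence of 453 bases reads these bases in another frame, 2 bases off the frame of the other members, in all 4 of its transcripts. The coding sequence of Obox6 was the longest, at 1041 bases, and that of Obox8 had 651 bases.

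Short reads can be given to a member only where its transcript differs from the others. Of all words of 50 bases in the Obox6 transcript, 0% occurred in another member and 5.02% in the pseudogene Obox6-ps1. For Obox8 no word occurred in any other annotated gene. Obox1 and Obox2 shared 1033 words, 56.4% of those of Obox1 and 62.7% of those of Obox2. In any other member, 57.4% of the words of Obox1 and 64.4% of those of Obox2 also occurred. The share was 20.0% for Obox7 and 17.1% for Obox5, mostly with each other, and 1.64% for Obox3. For Obox3 it rose to 19.6% when pseudogenes of the family were counted. The split of reads between Obox1 and Obox2 is therefore uncertain.

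**Figure D1:**
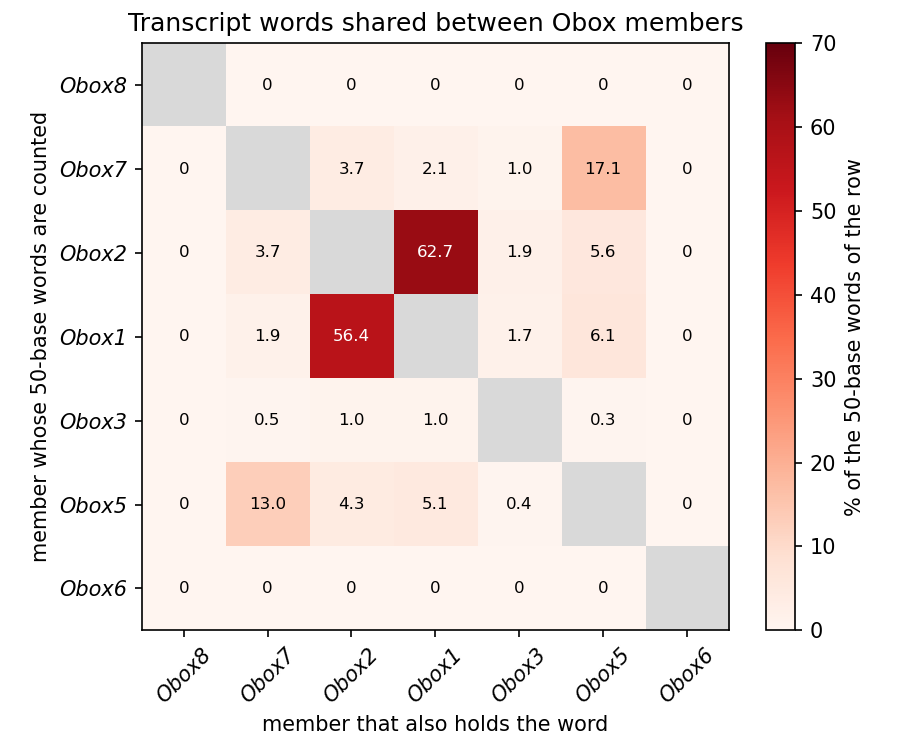
Share of the 50-base words of each member (rows) that also occur in the transcripts of another member (columns), in percent of the words of the row, with members in chromosome order. Obox1 and Obox2 share most words, and the rows and columns of Obox6 and Obox8 hold 0.

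Obox6 was by far the most abundant member in every blastomere. Its level, in TPM (the share of a gene among the transcripts of a cell, corrected for transcript length), was 708 ± 201 (SD, n = 9 cells). It ranked 240 among all genes by mean TPM, and between rank 162 and rank 328 in a cell. For scale, between 11058 and 13319 genes had TPM > 1 in a cell.

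In embryo 1 the Obox6 level (ENSMUSG00000041583.8, chr7:15833241-15839678) was 701 TPM in cell 1, 892 TPM in cell 6 and 537 TPM in cell 7. In embryo 2 it ran from 452 TPM in cell 6 to 1079 TPM in cell 8, with a median of 652 TPM. The cells of embryo 1 all fell inside the range of embryo 2. The embryo means were 709.9 ± 177 TPM (SD, n = 3 cells) and 706 ± 228 TPM (SD, n = 6 cells). On the scale of log2(TPM + 1) the difference of embryo 2 minus embryo 1 was -0.04, against a pooled SD between cells of 0.43. The SD of Obox6 over the 9 cells was 0.40 on this scale. The median SD of the 302 genes within 2-fold of its mean level was 0.43, and 41.4% of them had a smaller SD than Obox6.

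Obox6 made up 97.6% of all TPM of the family, and between 95.1% and 99.3% in a cell. The summed level of the 7 members was therefore close to that of Obox6. It was 709 TPM, 915 TPM and 543 TPM in cells 1, 6 and 7 of embryo 1, and 475 to 1086 TPM in embryo 2. The other 6 members together reached 5.78 to 33.4 TPM in a cell.

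Obox8 was the second member of the family and the only other one with TPM > 1 in all 9 cells. Its mean level was 11.3 ± 7.88 TPM (SD, n = 9 cells). In embryo 1 Obox8 (ENSMUSG00000099216.1, chr7:14331436-14333557) had 2.23 TPM in cell 1, 15.7 TPM in cell 6 and 1.46 TPM in cell 7. In embryo 2 its lowest level was 6.62 TPM, its median 11.8 TPM and its highest 25.8 TPM. The 2 lowest cells of all 9 were those of embryo 1, but cell 6 of embryo 1 lay inside the range of embryo 2.

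Between embryos, Obox8 showed the largest difference in the family. The mean log2(TPM + 1) was 2.35 in embryo 1 and 3.74 in embryo 2, a difference of 1.39 beside a pooled SD of 0.99. A gene was called different between embryos where all cells of one lay beyond all cells of the other and the mean log2(TPM + 1) differed by at least 1. By this rule 0 of the 7 members were called, against 2.43% of the 13648 genes with a mean TPM > 1 (0.572% higher and 1.86% lower in embryo 2). With no limit on size it was also 0 of 7, against 3.35%. Among the members only Obox6, Obox8 and Obox2 had a mean TPM > 1 themselves, so the other members lie outside the genes of these shares. Without cell 6 of embryo 1 the difference of Obox8 was 2.24 and the rule called it, as the only member, but the rule then called 5.89% of the 13587 genes tested (1.58% higher in embryo 2). In all other cases of leaving out 1 cell no member was called.

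The label numbers of the cells fell into a range from 11 to 17 (3 cells) and a range from 20 to 25 (6 cells), for which the study's sample list names the protocols scRR3 and scRR1, with a larger and a smaller volume of lysis buffer. Within the range from 11 to 17 Obox8 was higher in embryo 2 by 2.81 on the log2 scale, with 1 cell of embryo 1 against 2 cells of embryo 2. Within the range from 20 to 25, with 2 cells against 4, it was higher by 0.68. The share of TPM in mitochondrial genes was 4.28 to 6.77% in embryo 1 and 5.98 to 18.2% in embryo 2, and with these genes removed the difference of Obox8 was 1.49. For embryo cells the paper reports a 3′ bias of transcript coverage with scRR1, and fewer transcripts detected than with scRR3. The part of the protocol in these values was not tested.

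Obox2 came next, at 4.23 ± 4.41 TPM (SD, n = 9 cells), with TPM > 1 in 6 cells. Obox2 (ENSMUSG00000074369.12, chr7:15388721-15398545) had 4.67, 4.86 and 3.00 TPM in cells 1, 6 and 7 of embryo 1. In embryo 2 it ran from 0 TPM in cell 5 to 14.4 TPM in cell 6, with a median of 1.84 TPM. The embryo 1 cells were alike, and the embryo 2 cells spread to both sides of them. The difference between embryos was -0.60 on the log2 scale beside a pooled SD of 1.26.

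The remaining members were close to the limit of TPM > 1. Obox1 (ENSMUSG00000054310.16, chr7:15388948-15556866) passed it in 3 cells. These were the 3 cells numbered 11 to 17, with 1.05 TPM in embryo 1 cell 1, 1.98 TPM in embryo 2 cell 2 and 3.02 TPM in embryo 2 cell 3. In the range from 20 to 25 it was 0.66 TPM in embryo 1 cell 7 and was listed at 0 in the other 5 cells. Obox1 was thus the 1 member of 7 whose cells in the range from 11 to 17 all lay above those in the range from 20 to 25, which also held for 4.12% of the 24206 genes above 0 in any cell. The reverse held for 0 of 7 members and 0.706% of these genes. Without embryo 1 cell 1, which leaves 2 cells in the range from 11 to 17, it held for 2 members, Obox1 and Obox8, and for 7.16% of 23099 genes. Summed with Obox2, with which it shares most of its words, Obox1 gave 3.76 to 5.72 TPM in the range from 11 to 17 and 0 to 14.4 TPM in the range from 20 to 25, and the ranges overlapped.

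Obox5 (ENSMUSG00000074366.9, chr7:15750131-15759800) had 1.28 TPM in embryo 1 cell 6, 0.66 TPM in embryo 1 cell 7 and 3.72 TPM in embryo 2 cell 7, and was listed at 0 in the other 6 cells. Obox7 (ENSMUSG00000055942.13, chr7:14659496-14665996) was seen in embryo 2 cell 2 alone, at 2.78 TPM. Obox3 (ENSMUSG00000066772.12, chr7:15479825-15639902) had 1.3 TPM in embryo 1 cell 6 and 0.87 TPM in embryo 2 cell 6, and was listed at 0 in the other 7 cells. For these 3 members no difference between embryos exceeded the pooled SD. A value of 0 need not mean that the RNA was absent, since Gapdh, a glycolytic enzyme gene with a median of 166 TPM, was also listed at 0 in 1 cell. Actb, Tubb5 and Eef2, looked up together with Gapdh, were not listed at 0 in any cell. The lowest value among them was 4.49 TPM, for Tubb5, whose median was 14.3 TPM.

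**Figure D2:**
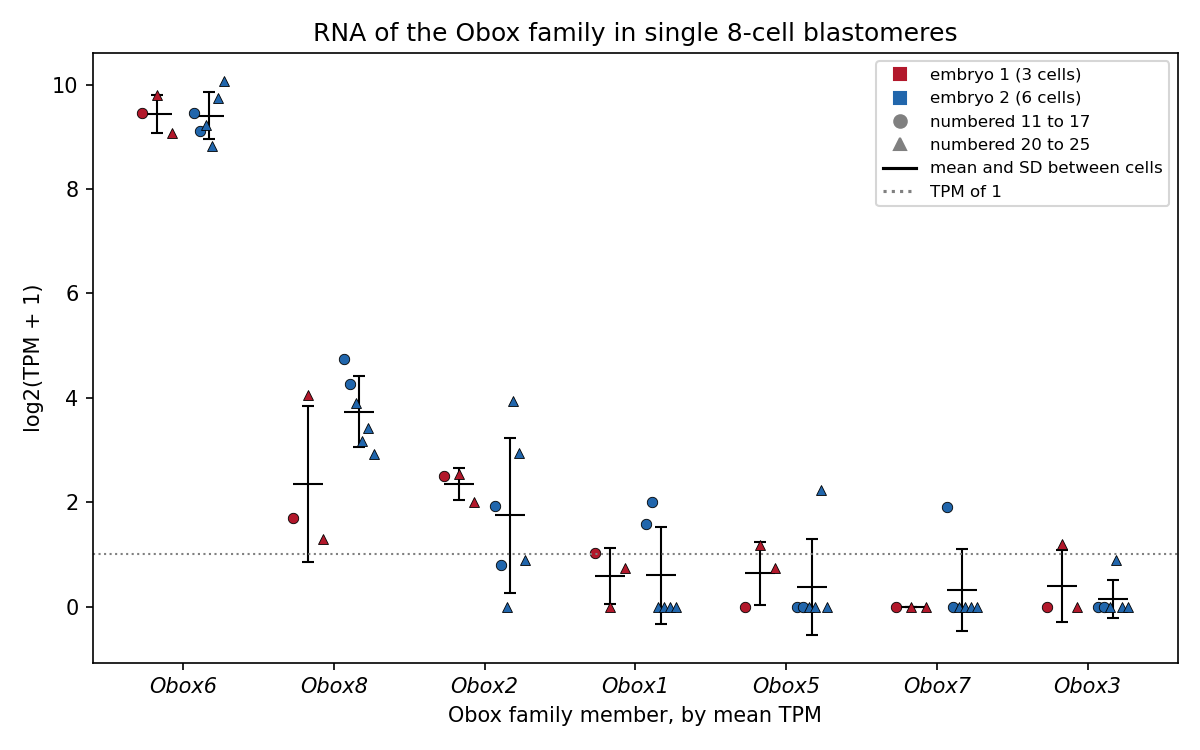
RNA level of each member as log2(TPM + 1) in the 9 blastomeres, with members ordered by mean TPM, embryos in colours, label number ranges as symbols, and the mean with the SD between cells as bars. Obox6 lies at 8.82 to 10.1 in all cells, and the other 6 members lie between 0 and 4.74.

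In the order of mean levels, Obox6 exceeded Obox8 in 9 of 9 cells, and the ratio of the means was 62.7. Their difference was 6.14 ± 1.18 on the log2 scale (mean and SD over 9 cells). Obox8 exceeded Obox2 in 6 of 9 cells, by 1.32 ± 1.86. Obox2 exceeded Obox1 in 7 cells, by 1.36 ± 1.59. The lower neighbours Obox1 and Obox5, Obox5 and Obox7, and Obox7 and Obox3 did not differ beyond the SD of their difference either. The number of members with TPM > 1 was 2 to 5 in a cell, with a mean of 3.44.

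The transcript table gave the annotated forms behind these levels. Obox6 and Obox8 have 1 annotated transcript each. Of 4 Obox2 transcripts, 2 had a value and neither prevailed in all cells. Obox2-201 was seen in 6 cells and was the higher in cell 6 of embryo 1 (4.86 TPM) and in cells 3, 6 and 7 of embryo 2, with 14.4 TPM in cell 6. Obox2-203 was seen in 5 cells and was the higher in cells 1 and 7 of embryo 1 (3.24 and 3.00 TPM) and in cells 2 and 8 of embryo 2. Of 6 Obox1 transcripts, Obox1-206 was seen in the 3 cells of the range from 11 to 17, at 1.05 to 3.02 TPM. Obox1-204 was seen at 0.53 TPM in cell 2 of embryo 2 and at 0.66 TPM in cell 7 of embryo 1, where it was the only form. The only Obox7 transcript with a value was Obox7-202, whose annotated coding sequence does not hold the helix stretch printed above. All of the Obox5 level came from Obox5-201, 1 of 3 transcripts. For Obox3, 2 of 8 transcripts had a value, Obox3-201 and Obox3-205, each in 1 cell.

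Besides the members, 48 further loci carried an Obox symbol with a pseudogene suffix, 46 on chromosome 7 and 2 on chromosome 17. Of these, 36 were listed at 0 in all 9 cells and 10 passed TPM > 1 in at least 1 cell. The mean exceeded 1 TPM for 2 of them, Obox3-ps7 at 1.56 ± 2.11 TPM and Obox4-ps5 at 1.24 ± 2.45 TPM (SD, n = 9 cells). The highest value of any was 7.23 TPM, that of Obox4-ps5 in cell 7 of embryo 2, and Obox4-ps5 had at most 2.89 TPM in the others. Summed, the 48 loci gave 0 to 16.4 TPM in a cell, against at least 475 TPM for the members.

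The promoter windows of RefSeq (300 bases around a start, GRCm38.p6) held entries for Obox1, Obox2, Obox3, Obox5 and Obox7. Obox6 and Obox8 had no entry there. The Obox1 window (chr7:15547007-15547306) did not hold the start of Obox1-206 at base 15388948, which gave 82.3% of the Obox1 level. Nor did it hold that of Obox1-204 at base 15548411, the only other Obox1 form with a value. The Obox2 window (chr7:15388601-15388900) held the start of Obox2-201. It did not hold that of Obox2-203 at base 15388968, which gave 29.4% of the Obox2 level. The Obox3 window (chr7:15639728-15640027) did not hold the start of Obox3-201 at base 15627876, which gave 59.9% of the Obox3 level. On either strand, TAATCC, the core site of bicoid-type homeodomains, was found in 1 of the 5 windows (Obox3), against 7.06% of 32851 promoters. TATAAA was found in 1 (Obox3), against 13.6%, and CCAAT in 3 (Obox2, Obox3 and Obox7), against 37.4%. CACGTG was found in 0 of the 5, against 7.15%.

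Other homeobox genes gave the scale for the level of Obox6. In a fixed list of 17 homeobox genes of the PRD class and of the early embryo, 13 had a mean TPM > 1. The highest was Crxos, a homeobox gene that lies 42.9 kb from Obox6, at 978 ± 234 TPM (SD, n = 9 cells). Pou5f1, the pluripotency factor OCT4, followed at 197 ± 70.7 TPM. Nanog, another pluripotency factor, had 29.2 ± 22.7 TPM. Rhox5, a gene of the X-linked reproductive homeobox cluster, was seen only in cells 1 and 7 of embryo 1, at 169 and 119 TPM, and was listed at 0 in the other 7 cells.

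Within a cell, Obox6 was 2.03 to 9.21 times as abundant as Pou5f1 and 6.47 to 105 times as abundant as Nanog, and higher than both in 9 of 9 cells. Crxos was the exception. The ratio of Obox6 to Crxos ran from 0.333 to 1.40 with a median of 0.837, and Obox6 was the higher in 2 of 9 cells. Over the 9 cells, Pearson's r between Obox6 and Crxos was -0.55 on the log2 scale, given as a description of cells that share embryos and protocols.

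**Figure D3:**
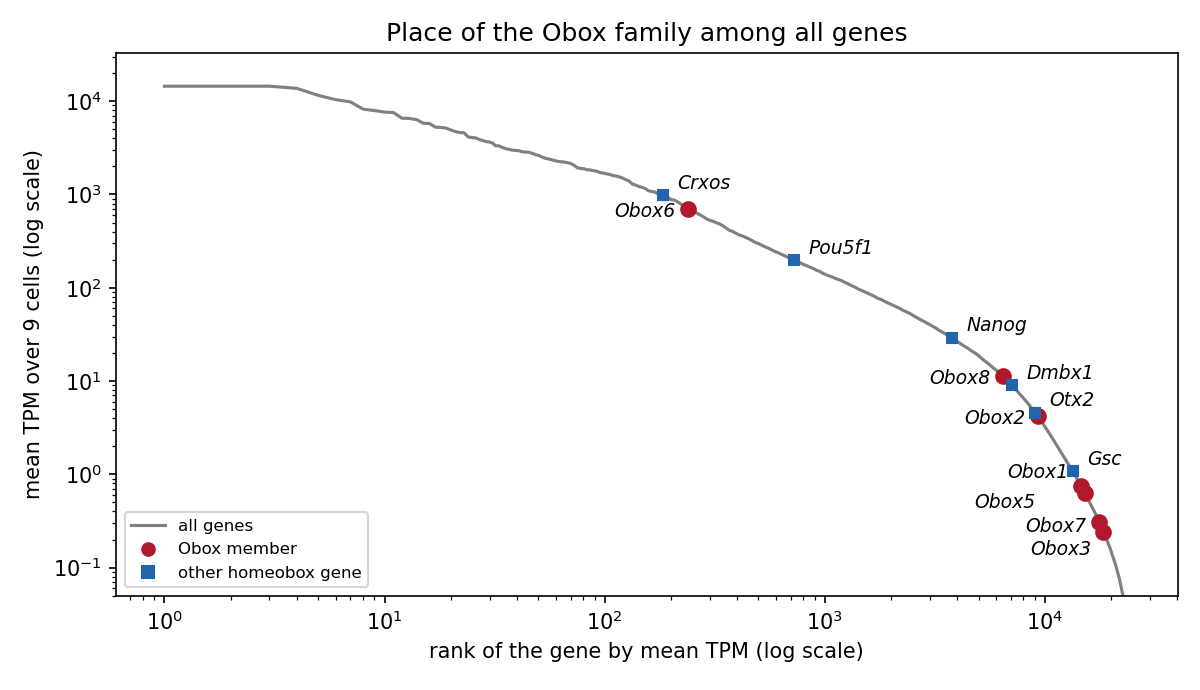
Mean TPM over 9 cells against the rank of the gene (both axes logarithmic), with all genes as a line, the Obox members as circles and 6 other homeobox genes as squares. Obox6, at rank 240, lies near Crxos and above Pou5f1, and Obox8, at rank 6437, is the next member.

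Most of these homeobox genes had a lower mean in embryo 2. Of the 13 tested, 12 were lower and 1 was higher on the log2 scale, while 52.4% of all tested genes were lower. Against 0.572% higher and 1.86% lower over all genes tested, the call rule, which works gene by gene, gave 0 higher and 1 lower. This was Rhox9, with 10.6 to 66.3 TPM in the cells of embryo 1 and at most 2.48 TPM in embryo 2. The median difference of the list was -1.15, against -0.04 over all 13648 genes. Rhox5, Rhox6 and Rhox13 were listed at 0 in all cells of embryo 2. Otx2, Gsc, Rhox9 and Cdx2 had an embryo 2 mean of at most 0.9 TPM. All of these passed the limit of mean TPM > 1 only through embryo 1, so the filter set their lower TPM mean in embryo 2. Nothing is therefore read from the 12 of 13 or from the median of the list.

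Factors tied to the activation of the embryonic genome were expressed beside Obox6. Of 14, 11 had a mean TPM > 1 and 0 were called in either direction, against 2.43% of all genes tested. The median difference of the list was -0.15. The highest were Dppa2 at 440.2 ± 129 TPM and Dppa4 at 369.6 ± 49.3 TPM, which act upstream of the 2-cell programme, then Klf5 at 265 ± 89.2 TPM and the nuclear receptor gene Nr5a2 at 104 ± 32.3 TPM. Obox6 exceeded Dppa4 by 1.16 to 2.68 times and Nr5a2 by 3.98 to 18.3 times.

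Genes of the 2-cell programme were mostly low. Of 24, 9 had a mean TPM > 1 and 5 were listed at 0 in every cell, among them Zscan4c and Zfp352. The highest were Pramel6 at 603 ± 101 TPM, Sp110 at 541 ± 161 TPM, Pramel7 at 446 ± 158 TPM and Tdpoz2 at 32.1 ± 20.3 TPM. Tdpoz2 was the 1 gene of the list called, from 38.9 to 76.8 TPM in embryo 1, and from 9.20 to 31.3 TPM in the other embryo. Over all 13648 genes tested the rule called 2.43%, and nothing is read from 1 call among 9. The median difference of the list was -0.22.

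RNA of maternal oocyte genes was also present. Of 19, 14 had a mean TPM > 1. The highest were Khdc3, a gene of the subcortical maternal complex, at 499 ± 114 TPM, the zona pellucida gene Zp3 at 22.7 ± 13 TPM, Tle6 at 9.88 ± 5.11 TPM and Padi6 at 8.99 ± 4.26 TPM. The growth factor gene Gdf9 was called higher in embryo 2, from 2.49 to 3.49 TPM in embryo 1, and from 4.25 to 13.98 TPM in the other embryo. Oosp1 was called lower, with at least 3.46 TPM in each cell of embryo 1 and at most 2.82 TPM in embryo 2. Over all 13648 genes tested, 0.572% were called higher and 1.86% lower. Nothing is read from 1 call each way among 14 genes. The median difference of the list was 0.02.

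The identity of the cells was checked with markers. All 6 blastomere markers, among them Dppa5a and Tfap2c, had TPM > 1 in all 9 cells. The 7 oocyte and polar body markers summed to between 41.4 and 49.5 TPM in embryo 1, and to between 17.9 and 63.3 TPM in embryo 2. Cumulus cell markers summed to at most 0.23 TPM in embryo 1 and 6.13 TPM in embryo 2, with 4 of 7 at 0 throughout, Amh and Fshr among them. Sperm markers reached at most 1.62 TPM, with Tnp1, Tnp2 and Smcp at 0.

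Genes whose levels over the 9 cells were most like those of a member were read from 6858 genes by Pearson's r of log2(TPM + 1), with no test, since the closest of so many genes will be close. For Obox6 they were Cnih1, a cargo receptor gene, with r = 0.94, the cohesin gene Smc3 with r = 0.92 and the zinc finger gene Zbtb44 with r = 0.91. For the summed family they were Cnih1 with r = 0.94, Smc3 with r = 0.93 and Havcr1 with r = 0.90. For Obox8 they were the RNA-binding protein gene Rbm6 with r = 0.95, Gm47626 with r = 0.95 and Scamp1 with r = 0.94.

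Around the cluster, 67 further annotated genes lay within 500 kb of a member, and 15 of them had a mean TPM > 1. After Crxos, the highest were the SUMO-activating enzyme gene Sae1 at 144 ± 39.2 TPM, the ribosome assembly gene Nop53 at 118 ± 30.6 TPM and the selenoprotein gene Selenow at 49.1 ± 28.2 TPM. The helicase gene Dhx34 was the 1 gene called, with at least 6.00 TPM in each cell of embryo 1 and at most 4.61 TPM in embryo 2. The rule called 2.43% of all 13648 genes tested, and nothing is read from 1 call among 15. The median difference of the 15 genes was -0.05.

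The scRR-seq-DNA profiles of the same cells gave a state for 24 of the 38 bins of 40 kb that the cluster spans, and the other 14 were not in the table. The longest stretch without bins ran for 480 kb from base 15120001 to base 15600000 of chromosome 7. It held 23 of the other Obox loci and all of Obox1 and Obox2, which therefore have no replication state here, and it covered part of Obox3. Each of the other 4 members and the rest of Obox3 overlapped 1 bin.

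In embryo 2 the cluster had replicated in every cell. All 21 bins with a state in the 6 cells were called replicated in all 6, and no bin was called unreplicated in any. No data were given for 7 calls, in 3 bins next to the stretches without bins. On the whole of chromosome 7, 56.3% of such bins were replicated in all 6 cells, and 48.7% over all chromosomes of the table. The run of bins without an unreplicated call extended past the cluster on both sides, over 3.72 Mb and 79 bins.

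In embryo 1 none of the 24 bins was called replicated in any of the 3 cells. These cells had 0.00385 to 3.54% of all bins called replicated, against 62.4 to 80.5% in embryo 2. Cell 1 of embryo 1 stood apart on chromosome 7, where 1438 of its 1838 replicated bins lay. They made up 43.2% of the bins of that chromosome, against 1.08% in cell 6 and 0% in cell 7. The nearest of them to the cluster lay 10.2 Mb past its end, and the nearest replicated bin of cell 6 lay 0.651 Mb before its start. For representative cells of embryo 1 the paper describes uniform copy number apart from regions with chromosomal abnormalities. Whether the replicated calls of cell 1 on chromosome 7 mark replication or such a region was not tested. The study's list gives G1 as the phase of all 3 cells, and its text also allows for cells in G2/M, so an unreplicated call in them does not tell on which side of S phase a cell was. Embryo and replication state cannot be told apart in these cells. Within embryo 2 the Obox6 bin was replicated in all 6 cells. Its RNA level there, 452 to 1079 TPM, therefore could not be compared between states.

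**Figure D4:**
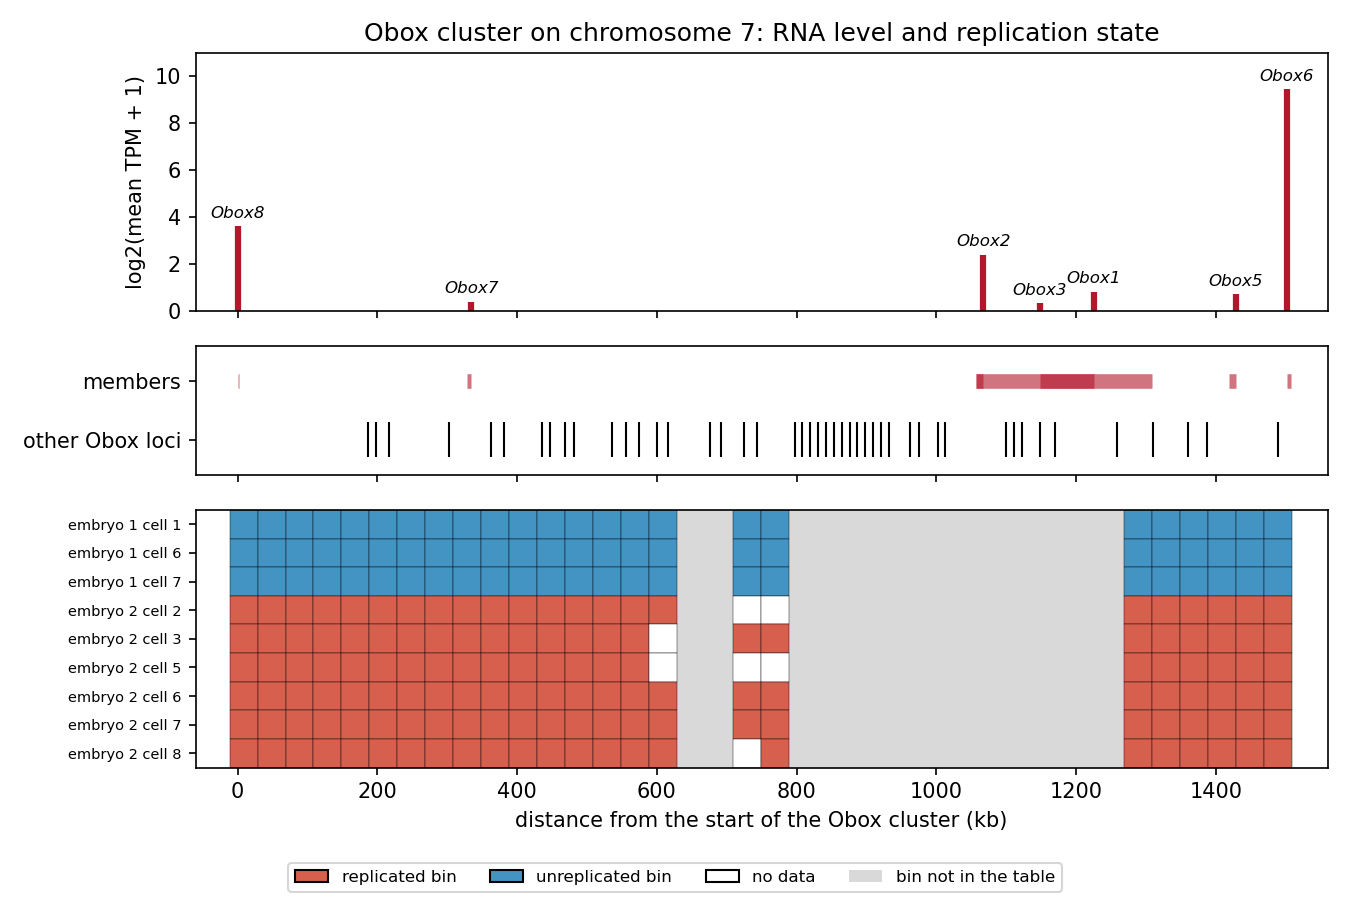
The Obox cluster by distance from its start in kb. The top panel gives log2(mean TPM + 1) of each member at the 3′ end of the gene, the middle panel the members and the other Obox loci, and the bottom panel the state of each 40-kb bin in the 9 cells. All bins with a state are replicated in embryo 2 and unreplicated in embryo 1, and the grey stretches hold the bins that the table does not list.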

How the data were processed

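The labels described 26 samples, the RNA and the DNA of 13 blastomeres from 2 embryos. The tables held 9 of these cells, and the other 4 were not analysed here. The RNA tables deposited by the authors hold TPM per gene and per transcript, 1 column per cell. Equal numbers of reads per cell had been drawn, mapped to mm10 by Hisat and turned into TPM by RSEM within the ramdaq pipeline. The TPM columns do not hold the number of reads behind a value, so no counting interval was computed. The DNA table deposited by the authors holds a score for the state of each 40-kb bin, 1 for replicated, -1 for unreplicated and 0 for no data, called by a hidden Markov model after alignment with BWA 0.7.17-r1188.

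RNA columns were given to cells by the number that closes each header, because all 9 headers name the same embryo and cell. Each of these files held 14 columns that carried no label of the series and were not used. Gene names and positions came from GENCODE M21 of the same build, in which 55141 of 55487 identifiers were found. The authors' annotation was a later GENCODE release.

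The 7 members and the gene lists were chosen with earlier results of these data known. On the scale of log2(TPM + 1), named genes were all members, other Obox loci with a mean TPM > 1, the 4 highest genes by mean TPM and every called gene of each list and of the neighbours, and the 3 genes with the highest r to a member or to the family sum, where gene and member had a mean of 3 or more on this scale. Ratios of Obox6 to single genes and the check of Gapdh were added after the values were seen. Differences were taken between means of log2(TPM + 1), with a pseudocount of 1, which understates the change of low genes. The pooled SD of cells around their embryo means is given beside them. Words of 50 bases were compared on both strands. The helix stretch was found by a conserved pattern in the annotated reading frame, and in Obox2 by the closest match to Obox1. The pattern first planned missed most members and was widened after this was seen. Protein sequences were not used here. Python 3.11.15 with numpy 2.4.6, pandas 2.3.3 and matplotlib 3.10.9 was used.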

Additional observations from a re-analysis of the deposited data

Results flagged for a closer look

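Of 11 sets of values over the 6 cells of embryo 2 (the members, 3 summaries of the family and Crxos), 3 held a cell that stood apart from the others by Dixon's ratio, with a critical value of 0.625. In each case a single cell had a value and the other 5 cells were listed at 0, which gives a ratio of 1 whatever the value. The usual rate of about 1 in 20 by chance does not hold for such values, and nothing is read from the number of sets. These were Obox7 at 2.78 TPM in embryo 2 cell 2, Obox5 at 3.72 TPM in embryo 2 cell 7 and Obox3 at 0.87 TPM in embryo 2 cell 6. Obox6, Obox8 and the family sum had no such cell.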

How the results depend on the processing

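The difference of Obox6 between embryos stayed within 1 pooled SD of its value under each alternative tried, and it ran from -0.22 to 0.14 when 1 cell was left out, so it has no fixed direction. It was 0.06 with mitochondrial genes removed and 0.01 with each cell scaled by its median. The summed family ran from -0.20 to 0.17 when 1 cell was left out. The difference of Obox8 kept its direction under all alternatives tried, from 0.86 to 2.24 without 1 cell, and was 2.81 with only the cells numbered 11 to 17. That of Obox2 ran from -1.04 to -0.25 without 1 cell. With a pseudocount of 0.1 the difference of Obox5 became -1.36. The mean number of members per cell was 2 at TPM > 5, and 3.25 to 3.63 without 1 cell. Over all genes, 209 were called at a mean TPM > 5, and 408 to 865 without 1 cell, where fewer cells have to be separated (865, 800 and 707 without cell 1, 6 or 7 of embryo 1). The number of members higher in every cell numbered 11 to 17 was 1 to 2 without 1 cell, an alternative chosen after seeing the data. The number of the 13 homeobox genes lower in embryo 2 was 11 with either other scaling and 10 to 13 without 1 cell, also chosen after seeing the data. For several of these genes the filter had set the direction. The state of the cluster was the same with 500 kb added on both sides and with only the bins that overlap a member. Cells of embryo 1 have no counterpart in embryo 2, so the differences between embryos were not paired.

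Limits are that each embryo is 1 replicate, that TPM does not hold the reads behind a value, that reads of Obox1 and Obox2 can be split between them, and that embryo and replication state cannot be told apart.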
